A study of Homo sapiens with 10 samples.

Results

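The 10 genes described here are members of the Notch pathway. They encode 3 ligands (DLL1, DLL3 and JAG1), 3 receptors (NOTCH1, NOTCH2 and NOTCH3) and 4 HES or HEY factors (HES1, HES5, HES6 and HEY1). Each was taken as the row of the deposited gene count table that carries its symbol. Each symbol stood on 1 row, giving 10 of 60898 rows, and all 10 passed the filter on low counts, which kept 21063 genes for testing.

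RNA was sequenced from H1-derived neural progenitor cells (NPCs); H1 is an established human embryonic stem cell line. The 10 libraries form 5 groups of 2. KO1 and KO2 are lines with the genotype STAMBP-KO, KO+STAMBP has the genotype STAMBP-KO+STAMBP, KO+CFLAR has STAMBP-KO+CFLAR, and WT carries no such change. KO stands for KO1 and KO2 together, and the groups with an added construct are called the rescue groups. STAMBP is a deubiquitinase of the endosomal sorting machinery, and CFLAR encodes an inhibitor of caspase-8 activation. The titles of all 10 libraries carry the code P3, which is not spelled out. Neither the clonality of a knockout line nor the line that received a construct is labelled. Nothing says that replicate libraries were separate cultures, so p-values measure the spread between libraries, which may be technical.

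Notch signalling passes between touching cells. A Delta or Jagged ligand on one cell binds a Notch receptor on its neighbour, ADAM proteases and gamma-secretase cut the receptor, and its intracellular domain joins RBPJ and Mastermind in the nucleus to switch on HES and HEY genes. HES1 and HES5 repress proneural genes and keep neural progenitors undifferentiated, while cells that leave the progenitor state express DLL1 and DLL3.

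Libraries held 16495116 to 20832700 counts. STAMBP itself averaged 18.6 ± 1.19 CPM (gene counts relative to the TMM-scaled library total, the usual depth-normalised unit) in the knockout libraries (SD, n = 4), 42.8 ± 3.42 in KO+STAMBP, 41.4 ± 2.01 in both libraries labelled KO+CFLAR and 45.2 ± 2.71 in WT (SD, n = 2 each). CFLAR averaged 254 ± 8.10 CPM in the knockout libraries, 32.1 ± 0.041 in KO+STAMBP, 30.4 ± 1.35 in both libraries labelled KO+CFLAR and 32.2 ± 2.68 in WT. The libraries labelled KO+CFLAR thus had STAMBP near its WT level and CFLAR no higher than WT, against their label. Whether transcripts of the added constructs are counted on the rows of these genes was not tested. Their values are given as labelled; leaving them out of the fit changed no call on the 10 genes in KO vs WT, KO+STAMBP vs KO or KO+STAMBP vs WT.

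RNA of neural progenitor, neuron and other cell types was checked with lists of defining markers. The summed level of 7 progenitor markers other than HES5 (SOX1, SOX2, PAX6, NES, VIM, FABP7 and SLC1A3) was 3190 to 3205 CPM in knockout libraries. It was 2635 to 2678 with STAMBP added, 2662 to 2715 in the libraries labelled KO+CFLAR and 5276 to 5489 in WT. All 7 were detected in each group, and VIM alone averaged 2257 ± 12.3 CPM in knockout libraries against 2157 ± 104 in WT. PAX6 averaged 208 ± 3.95 CPM in knockout libraries against 181 ± 0.119 in WT. Another 4 were low: SOX1 averaged 0.479 ± 0.125 CPM in knockout libraries against 147 ± 6.73 in WT, FABP7 0.445 ± 0.238 against 1123 ± 41.1, SOX2 28.4 ± 1.36 against 297 ± 0.425 and SLC1A3 40.0 ± 2.79 against 704 ± 5.61. NES averaged 660 ± 10.1 CPM in knockout libraries against 773 ± 4.75 in WT. PAX6, NES and VIM thus lay near or above the WT level there, and the other 4 far below it. The 7 markers were thus split on the NPC label. The 6 neuron markers summed to 683 to 707 CPM in knockout libraries, 5010 to 5064 in KO+STAMBP, 5065 to 5164 in both libraries labelled KO+CFLAR and 3320 to 3407 in WT. The 6 epithelial markers, such as CDH1 and KRT8, summed to 6478 to 6857 CPM in knockout libraries, 57.9 to 60.6 in KO+STAMBP, 51.0 to 52.3 in the libraries labelled KO+CFLAR and 30.7 to 32.0 in WT. The 5 mesenchymal and mural markers summed to 2042 to 2122 CPM in knockout libraries, 105 to 107 in KO+STAMBP, 82.1 to 85.8 in the libraries labelled KO+CFLAR and 92.7 to 97.1 in WT. That sum was carried by COL1A1 (1029 CPM in knockout libraries against 6.63 in WT) and COL1A2 (1042 against 66.2), while the mural marker PDGFRB was lower (8.93 against 19.9) and RGS5 had 2.86 against 1.98. The 5 endothelial markers summed to 28.97 to 30.4 CPM in knockout libraries, against 9.48 to 9.72 in WT. They summed to 9.48 to 9.72 in KO+STAMBP and 7.07 to 7.93 in the libraries labelled KO+CFLAR. KDR carried the knockout sum (25.4 CPM against 3.35 in WT). PECAM1 and CDH5 were also higher there than in WT, but TEK (1.196 against 4.08) and CLDN5 (0.110 against 1.35) were lower. The 3 pluripotency markers summed to 20.3 to 24.1 CPM in knockout libraries, against 1.40 to 1.95 in WT. The rescue groups had 1.85 to 2.03 and 0.815 to 1.63, in the same order. LIN28A carried the knockout sum (21.9 CPM against 0.516 in WT), while POU5F1 was lower (0.719 against 0.978) and NANOG had 0.304 against 0.180. The 3 choroid plexus markers summed to 53.3 to 62.0 CPM in knockout libraries, 344 to 348 in KO+STAMBP, 302 to 312 in both libraries labelled KO+CFLAR and 26.9 to 28.4 in WT. TTR made up most of it in the rescue groups. In knockout libraries the sum was carried by CLIC6 (55.0 CPM against 6.67 in WT), with AQP1 at 3.44 against 1.85. TTR went the other way there, with 1 count over the 4 libraries (0.014 CPM against 19.1 in WT). In bulk RNA, fewer cells of a type and less RNA per cell cannot be told apart.

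Promoters of HES1, HES5 and HES6 are shown because these HES genes, all tied to Notch signalling, did not change together. Each is the 250 bases before the RefSeq start of the gene on GRCh38.p14, printed 5′ to 3′ on the gene's strand. Capitals mark TGGGAA, the core letters that RBPJ recognises, on either strand (TTCCCA when read on the other). HES1 lies at chr3:194135898-194136147 on the plus strand, HES5 at chr1:2530264-2530513 on the minus strand and HES6 at chr2:238240039-238240288 on the minus strand.
HES1: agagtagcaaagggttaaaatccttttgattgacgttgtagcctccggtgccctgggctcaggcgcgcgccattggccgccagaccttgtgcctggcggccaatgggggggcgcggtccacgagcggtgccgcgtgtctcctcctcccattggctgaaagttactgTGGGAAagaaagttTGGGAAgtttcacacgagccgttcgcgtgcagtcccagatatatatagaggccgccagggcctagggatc
HES5: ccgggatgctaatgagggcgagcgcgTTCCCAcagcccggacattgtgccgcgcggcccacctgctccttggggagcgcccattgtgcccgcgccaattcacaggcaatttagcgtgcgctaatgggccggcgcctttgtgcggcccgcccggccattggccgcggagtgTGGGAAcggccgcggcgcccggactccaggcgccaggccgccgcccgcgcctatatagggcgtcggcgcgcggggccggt
HES6: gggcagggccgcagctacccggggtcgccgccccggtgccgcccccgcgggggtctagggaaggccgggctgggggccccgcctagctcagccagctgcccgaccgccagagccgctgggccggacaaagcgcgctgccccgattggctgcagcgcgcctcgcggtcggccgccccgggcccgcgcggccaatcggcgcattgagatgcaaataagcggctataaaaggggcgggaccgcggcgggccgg

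RefSeq gave a promoter for 7 of the 10 genes, all but DLL1, DLL3 and HEY1. The HES1 promoter held TGGGAA at -84 to -79 and again at -70 to -65, both on the forward strand, counting back from the base before the start. In the HES5 promoter, TGGGAA lay in reverse at -224 to -219 and forward at -80 to -75. The first HES1 copy and both HES5 copies extended to GTGGGAA, a longer form that overlaps TGGGAA. No copy of either was found in the HES6 promoter or in those of JAG1, NOTCH1, NOTCH2 and NOTCH3. The HES6 window lies inside the GENCODE bounds of the gene (chr2:238238267-238240662), and sequence before the outer end of those bounds was not searched. Over windows from 250 bases before to 50 after the start, 24% of 35116 promoters held TGGGAA and 3.8% held it at least 2 times, while 6.25% held GTGGGAA, all on either strand. HES1 and HES5, whose promoters both hold these letters, moved differently in the knockout libraries: HES5 fell and HES1 was little changed, as described below. A match is a description of the sequence, not evidence that RBPJ was bound.

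Loss of STAMBP went with an exchange of Notch ligands. JAG1 rose 8.70-fold in knockout libraries, while DLL1 fell 7.99-fold and DLL3 fell 73.4-fold. NOTCH3 rose 2.49-fold, NOTCH1 fell 1.46-fold, and the neural HES genes HES5 and HES6 fell 6.08-fold and 15.6-fold. All 10 genes passed edgeR's quasi-likelihood test between KO and WT (called where the p adjusted by Benjamini-Hochberg was under 0.05), 3 higher and 7 lower. In that comparison 76.2% of all tested genes were called, 36.8% higher and 39.4% lower, so a call by itself was common. The median log2 change was -0.58 over the 10 genes and -0.04 over all tested genes. Each line on its own gave 10 calls in those directions. Both lines were set against the same WT libraries, so these results are not independent of each other. Of all genes, 72.9% were called in KO1 vs WT (35.6% higher, 37.3% lower) and 73.1% in KO2 vs WT (35.8% higher, 37.3% lower).

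**Figure D1:**
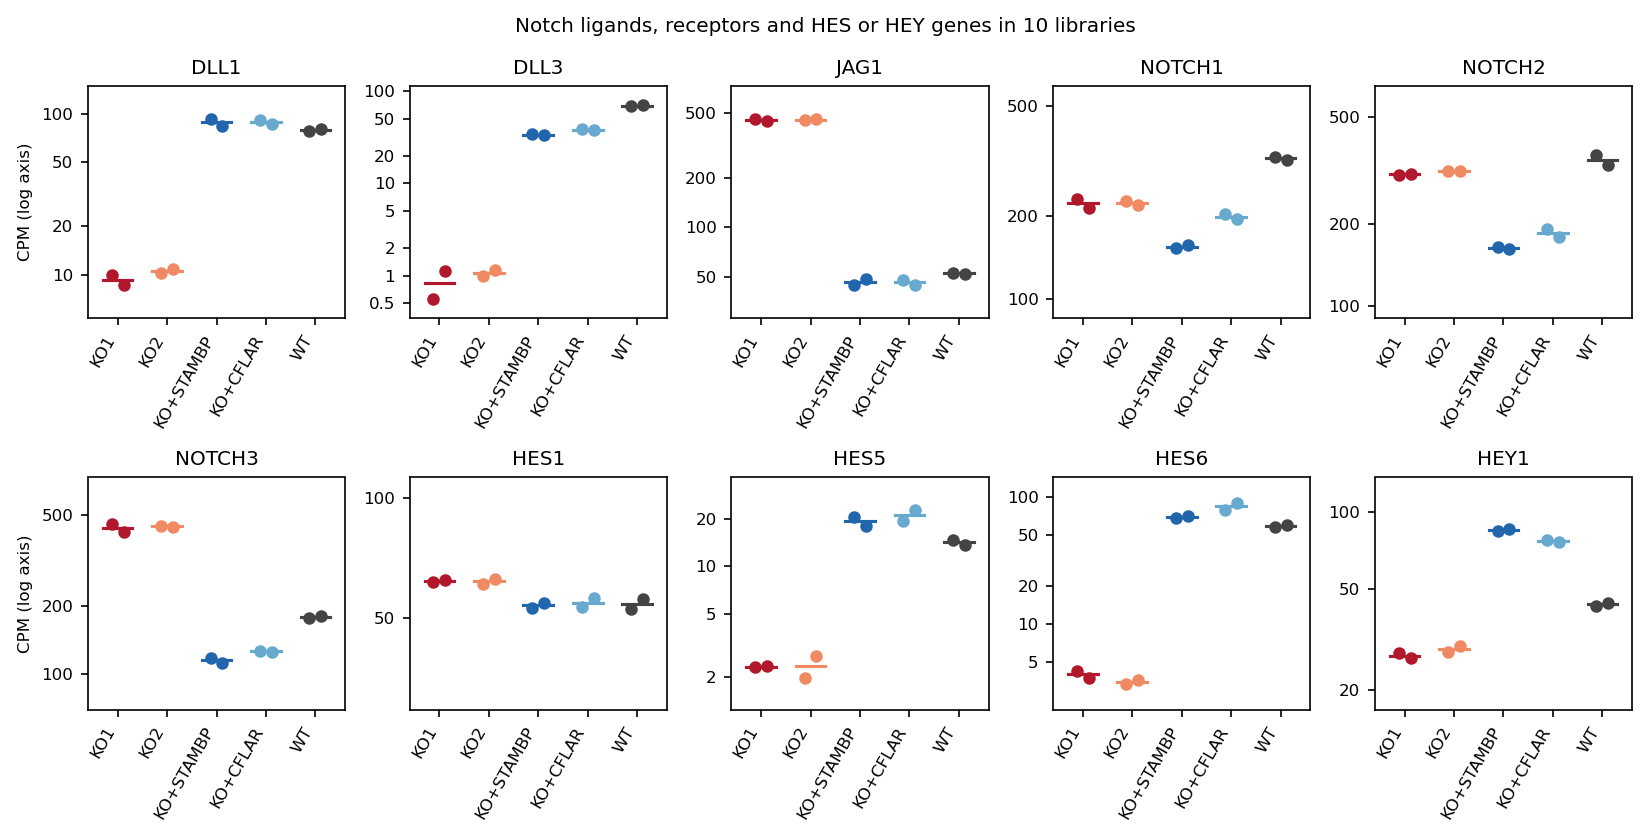
Level of each of the 10 genes in CPM (log axis) in the 2 libraries of KO1, KO2, KO+STAMBP, KO+CFLAR (as labelled) and WT; points are libraries and bars are group means. The knockout libraries stood apart from WT most for DLL3 (0.550 to 1.15 CPM against 68.4 to 71.1) and lay closest to WT for NOTCH2 (305 to 315 against 332 to 361) and HES1 (60.9 to 62.8 against 52.7 to 55.8).

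DLL1 encodes the ligand best known for keeping neighbouring neural progenitors in the progenitor state. It lies at chr6:170282206-170306565 on the minus strand (GRCh38, GENCODE release 29, as for all gene positions here). It had 10.01 and 8.59 CPM in KO1 and 10.3 and 10.8 in KO2. DLL1 had 93.5 and 84.9 CPM in KO+STAMBP, 92.5 and 87.0 in both libraries labelled KO+CFLAR, and 78.1 and 80.6 in WT. The 4 knockout libraries were far below the other 6, and both rescue groups were above WT with no overlap. DLL1 thus changed by a log2 value of -3.00 ± 0.07 (SE; edgeR adjusted p = 1.15e-14). FAM120B overlaps DLL1 on the opposite strand but shares no annotated exonic base with it. FAM120B held 9487 counts over all libraries, 86.5% as many as DLL1. If counting ignored strand, reads in annotated exons could still be told apart by position, and only reads outside them could not. DLL1 is on a row of a merged locus, and the exons counted on that row are not given, so this may not hold there.

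DLL3 is a Delta relative that, in mouse, acts inside the cell and does not activate the receptor on neighbours. It lies at chr19:39498895-39508481 on the plus strand. It had 0.550 and 1.11 CPM in KO1 and 0.991 and 1.15 in KO2, which is 10 to 20 counts per library. It had 34.3 and 33.3 CPM in KO+STAMBP, 38.7 and 38.1 in both libraries labelled KO+CFLAR, and 68.4 and 71.1 in WT. The 3 levels were separate: knockout libraries were close to 1 CPM, rescue libraries were intermediate and WT libraries were highest. Between KO and WT the log2 change was -6.22 ± 0.10 (SE; edgeR adjusted p = 4.86e-16).

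JAG1 encodes the main Jagged ligand of epithelia, vessel walls and boundary regions. It lies at chr20:10637684-10673999 on the minus strand. It had 458 and 451 CPM in KO1 and 455 and 458 in KO2. It had 44.7 and 48.1 CPM in KO+STAMBP, 48.0 and 44.6 in both libraries labelled KO+CFLAR, and 52.5 and 52.2 in WT. The knockout libraries were high, all between 451 and 458 CPM, and the rescue libraries were all below both WT libraries. Its log2 change in KO vs WT was 3.12 ± 0.04 (SE; edgeR adjusted p = 6.44e-17). The epithelial and mesenchymal marker sums given above were high in those libraries too, and their part in the JAG1 result was not tested.

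Among the receptors, NOTCH3 moved in the opposite direction to NOTCH1. NOTCH3, the receptor best known in the mural cells of arteries, lies at chr19:15159038-15200981 on the minus strand. It had 458 and 421 CPM in KO1 and 450.5 and 444 in KO2, against 177 and 179.8 in WT. The log2 change was 1.31 ± 0.04 (SE; edgeR adjusted p = 4.01e-13). NOTCH1 lies at chr9:136494433-136545786 on the minus strand and is expressed widely in neural progenitors. It had 229.7 and 213 CPM in KO1 and 226 and 218 in KO2, against 327 and 319 in WT. The NOTCH1 log2 change was -0.54 ± 0.04 (SE; edgeR adjusted p = 3.39e-09), and neither receptor overlapped between knockout and WT.

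NOTCH2, a second receptor of neural progenitors, lies at chr1:119911553-120069626 on the minus strand. It shares sequence with the NOTCH2NL copies, so the split of reads between them is uncertain. It had 305 and 307 CPM in KO1 and 315 and 314 in KO2, against 361 and 332 in WT. The fall was small, with a log2 change of -0.16 ± 0.04 (SE; edgeR adjusted p = 0.0014), and WT replicate 2 lay near the knockout libraries without overlapping them. For KO2 alone the NOTCH2 call was lost without WT replicate 1 (log2 change -0.09, edgeR adjusted p = 0.107).

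HES5 and HES6, the neural HES genes, were low in the knockout libraries. HES5 encodes a repressor of proneural genes that depends on Notch input in the developing brain, and lies at chr1:2528745-2530245 on the minus strand. HES5 had 2.31 and 2.34 CPM in KO1 and 1.98 and 2.71 in KO2, or 30 to 47 counts per library. It had 20.7 and 18.0 CPM in KO+STAMBP, 19.5 and 22.8 in both libraries labelled KO+CFLAR, and 14.8 and 13.6 in WT. Knockout libraries were lowest, WT libraries intermediate and rescue libraries highest, with no overlap between these 3 levels. The KO vs WT log2 change of HES5 was -2.59 ± 0.14 (SE; edgeR adjusted p = 2.42e-10). A long non-coding gene that overlaps its bounds on the opposite strand held 210 counts over all libraries, 8.94% as many as HES5, with no shared exonic base.

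HES6 lies at chr2:238238267-238240662 on the minus strand; in mouse its protein opposes HES1 and is expressed in cells that become neurons. It had 4.24 and 3.78 CPM in KO1 and 3.37 and 3.63 in KO2. It had 67.5 and 71.1 CPM in KO+STAMBP, 79.4 and 88.8 in both libraries labelled KO+CFLAR, and 57.5 and 59.8 in WT. The knockout libraries were again lowest and both rescue groups lay above WT. HES6 changed by a log2 value of -3.96 ± 0.08 (SE; edgeR adjusted p = 4.80e-15). The neuron marker sums given above were also lowest in knockout and highest in the rescue libraries, and their part in the HES6 result was not tested.

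HES1 differed little between the groups. It encodes a repressor of proneural genes that many tissues express, and lies at chr3:194136145-194138732 on the plus strand. It had 61.4 and 62.2 CPM in KO1 and 60.9 and 62.8 in KO2. It had 53.0 and 54.6 CPM in KO+STAMBP, 53.2 and 55.9 in both libraries labelled KO+CFLAR, and 52.7 and 55.8 in WT. The knockout libraries lay above the other 6, which overlapped each other. Its log2 change in KO vs WT was 0.19 ± 0.05 (SE; edgeR adjusted p = 0.00255). This small difference rested on the scaling: with library size alone it was 0.01 (adjusted p = 0.852), and without WT replicate 1 it was 0.13 (adjusted p = 0.0636). In KO2 vs WT the HES1 call was also lost without KO2 replicate 2 (0.16). Without WT replicate 1 it was lost in each line on its own (0.13 for KO1 and 0.14 for KO2).

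HEY1 encodes a Hairy-related repressor of Notch-responsive tissues, including vessels and brain, and lies at chr8:79764010-79767863 on the minus strand. It had 27.8 and 26.6 CPM in KO1 and 28.1 and 29.6 in KO2. It had 84.2 and 85.5 CPM in KO+STAMBP, 77.5 and 76.5 in both libraries labelled KO+CFLAR, and 42.7 and 43.8 in WT. The order was knockout below WT and WT below both rescue groups, with no overlap. The KO vs WT log2 change was -0.63 ± 0.05 (SE; edgeR adjusted p = 3.39e-08).

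Levels of different genes were compared per length, as CPM divided by kilobases of annotated exon (RPKM). DLL1, JAG1, NOTCH2 and NOTCH3 are on rows of merged loci, whose counted exons may differ from the annotated ones. The orders, shares and ratios per length between genes depend on these lengths. In knockout libraries the order was JAG1 49.0, NOTCH3 47.2, HES1 30.0, NOTCH1 21.4, NOTCH2 18.4, HEY1 8.68, DLL1 3.08, HES6 1.84, HES5 1.79 and DLL3 0.363 RPKM. There the library ranges of JAG1 and NOTCH3 overlapped, as did those of HES6 and HES5. In WT the order was NOTCH1 31.2, HES6 28.8, DLL3 26.6, HES1 26.3, DLL1 24.6, NOTCH2 20.6, NOTCH3 19.0, HEY1 13.4, HES5 10.9 and JAG1 5.63 RPKM, with overlap between DLL3 and HES1. JAG1 was thus first of the 10 genes in knockout libraries and last in WT. In KO+STAMBP, HES6 was first at 34.0 ± 1.23 RPKM and JAG1 last at 4.99 ± 0.258 (SD, n = 2). The libraries labelled KO+CFLAR also had HES6 first, at 41.3 ± 3.26, and JAG1 last, at 4.98 ± 0.261.

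The make-up of ligand RNA differed between the groups. Per length, the sum of the 3 ligands averaged 52.4 ± 0.618 RPKM in knockout libraries, 45.5 ± 1.88 in KO+STAMBP, 47.5 ± 1.62 in both libraries labelled KO+CFLAR and 56.86 ± 1.251 in WT. JAG1 made up 93.4% ± 0.524 of that sum in knockout libraries (SD, n = 4) and 9.91% ± 0.255 in WT (SD, n = 2). DLL1 made up 5.87% ± 0.503 in knockout libraries and 43.3% ± 0.001 in WT, and DLL3 0.693% ± 0.201 and 46.8% ± 0.256. In KO+STAMBP the shares were 10.98% for JAG1, 60.7% for DLL1 and 28.4% for DLL3. The libraries labelled KO+CFLAR had 10.5%, 58.6% and 30.9% for the same 3 genes. Per length, JAG1 stood 16.01 ± 1.54 times as high as DLL1 in knockout libraries, whereas in WT DLL1 stood 4.37 ± 0.112 times as high as JAG1. Without the length correction, the ligand sum was 466 CPM in knockout libraries, 169 in KO+STAMBP, 174 in both libraries labelled KO+CFLAR and 201 in WT. JAG1 then made up 97.7% of it in knockout libraries, 27.4% in KO+STAMBP, 26.5% in both libraries labelled KO+CFLAR and 26.0% in WT.

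NOTCH3 had the largest share of receptor RNA in knockout libraries. Its part of the 3-receptor sum per length was 54.2% ± 0.512 in knockout libraries (SD, n = 4), 33.2% ± 1.01 in KO+STAMBP, 30.8% ± 0.543 in both libraries labelled KO+CFLAR and 26.8% ± 0.892 in WT. Per length, NOTCH1 had the largest share in the other groups; its share was 24.6% ± 0.276 in knockout libraries against 44.0% ± 0.167 in WT, and NOTCH2 had 21.2% ± 0.628 against 29.1% ± 1.06. The receptor sum was 87.0 ± 2.44 RPKM in knockout libraries, 36.8 ± 0.427 in KO+STAMBP, 43.6 ± 1.23 in both libraries labelled KO+CFLAR and 70.7 ± 1.52 in WT. Both rescue groups were therefore below WT and knockout in summed receptor RNA. Without the length correction, NOTCH3 still led in knockout libraries, at 45.5%. NOTCH2 then passed NOTCH1 in KO+STAMBP (37.8% against 35.7%) and in WT (40.8% against 38.1%), but not in the libraries labelled KO+CFLAR (36.4% against 38.9%).

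HES1 had the largest part of the sum of the 4 HES and HEY genes, per length, in knockout libraries. It made up 70.9% ± 0.756 of that sum in knockout libraries (SD, n = 4), 25.8% ± 0.364 in KO+STAMBP, 24.6% ± 0.456 in both libraries labelled KO+CFLAR and 33.1% ± 0.732 in WT. HES6 made up 4.36% ± 0.414 in knockout libraries against 36.3% ± 0.330 in WT. HES5 made up 4.22% ± 0.455 against 13.7% ± 1.04. The sum of the 4 genes was 42.3 ± 0.859 RPKM in knockout libraries, 101 ± 0.645 in KO+STAMBP, 108 ± 5.75 in both libraries labelled KO+CFLAR and 79.4 ± 1.52 in WT. The HES1 to HES5 ratio per length was 16.9 ± 1.96 in knockout libraries and 2.43 ± 0.237 in WT. HES2 and HES4, described below, are outside this sum. Each had a higher mean CPM than HES1 in knockout libraries, so the shares and sums hold for the 4 genes alone.

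**Figure D2:**
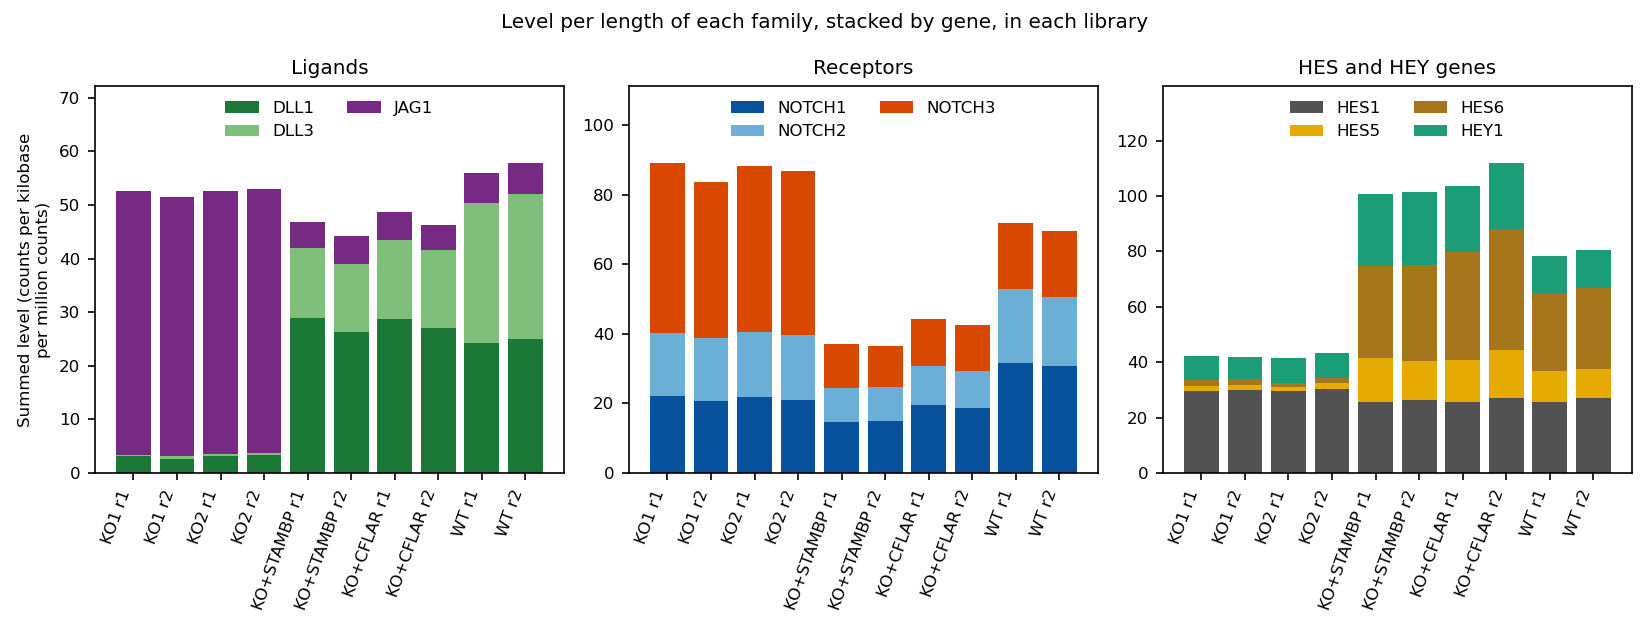
Level per length (CPM divided by kilobases of exon) stacked by gene, with 1 bar per library and each axis starting at 0. The bars hold only the ligands, receptors and HES or HEY genes among the 10 genes. JAG1 fills 92.8% to 94.0% of the ligand bar in the 4 knockout libraries and 9.73% to 10.1% in WT, while the receptor bars are lowest and the HES and HEY bars highest in the rescue libraries.

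With STAMBP added, all 10 genes differed from the knockout level. In KO+STAMBP vs KO all 10 were called, 5 higher and 5 lower, where 77.9% of all tested genes were called, 40.1% higher and 37.8% lower. DLL1 rose 8.97-fold, DLL3 35.6-fold, HES5 8.28-fold, HES6 18.5-fold and HEY1 3.03-fold. JAG1 fell 9.81-fold and NOTCH3 3.86-fold, while NOTCH2 fell 1.90-fold, NOTCH1 1.44-fold and HES1 1.15-fold. The libraries labelled KO+CFLAR gave 10 calls in those directions against KO, where 78% of genes were called (40% higher, 38% lower). There DLL1 rose 9.03-fold, DLL3 40.4-fold, HES5 9.05-fold, HES6 22.4-fold and HEY1 2.75-fold, and JAG1 fell 9.83-fold, NOTCH3 3.52-fold, NOTCH2 1.67-fold and NOTCH1 1.12-fold. NOTCH1, which was lower in knockout than in WT, was lower still in KO+STAMBP. With library size alone as the scaling, 3 of these changes turned direction and lost their call: HES1 in both rescue groups and NOTCH1 in the libraries labelled KO+CFLAR. Both comparisons use the knockout libraries that KO vs WT also uses, so their directions are not independent of it.

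Set against WT, both rescue groups differed in most of the 10 genes. In KO+STAMBP vs WT 9 of the 10 genes were called, 4 higher and 5 lower, where 34.9% of all tested genes were called, 16.4% higher and 18.5% lower. NOTCH1 fell to 155 ± 2.17 CPM in KO+STAMBP, against 323 ± 5.71 in WT (log2 change -1.06 ± 0.04, edgeR adjusted p = 2.31e-10). NOTCH2 fell to 163 ± 2.09 CPM in KO+STAMBP, against 346 ± 20.03 in WT (-1.08 ± 0.04, edgeR adjusted p = 2.69e-10). All 3 receptors were lower than in WT, since NOTCH3 fell to 115 ± 4.81 CPM against 178 ± 2.10 in WT. DLL3 returned part of the way, with 33.8 ± 0.665 CPM in KO+STAMBP against 69.7 ± 1.91 in WT (-1.05 ± 0.07, edgeR adjusted p = 5.02e-08). The choroid plexus marker sum given above was also higher in both rescue groups than in WT, and its part in these results was not tested. HEY1 passed the WT level, with 84.9 ± 0.962 CPM in KO+STAMBP against 43.3 ± 0.769 in WT (0.97 ± 0.05, edgeR adjusted p = 3.46e-09).

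The other differences of KO+STAMBP from WT were small. HES5 was higher by 0.45 ± 0.12 and HES6 by 0.24 ± 0.06 on the log2 scale (edgeR adjusted p = 0.011 and 0.00927). DLL1 was higher by 0.17 ± 0.06 and JAG1 changed by -0.17 ± 0.05 (edgeR adjusted p = 0.0447 and 0.0193). HES1 was not called, with a log2 change of -0.01 and a 95% interval from -0.13 to 0.10 (edgeR adjusted p = 0.887). The DLL1 call was lost without either WT library, either KO2 library or KO+STAMBP replicate 1 (log2 changes 0.10 to 0.19, adjusted p up to 0.397) and with DESeq2 (adjusted p = 0.0606). The JAG1 call was lost without either WT library or KO+STAMBP replicate 1 (-0.18 to -0.12) and with library size alone (-0.14). HES5 was not called without KO+STAMBP replicate 1 (0.35) or WT replicate 2 (0.39), nor HES6 without KO+STAMBP replicate 2 (0.20) or WT replicate 1 (0.21).

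The libraries labelled KO+CFLAR showed a like pattern against WT. There too 9 of the 10 genes were called, 4 higher and 5 lower, where 33.7% of genes were called, 15.8% higher and 17.9% lower. NOTCH1 averaged 198 ± 6.09 CPM against 323 ± 5.71 in WT, NOTCH2 186 ± 8.38 against 346 ± 20.03, and NOTCH3 126 ± 1.32 against 178 ± 2.10. HEY1 averaged 77.0 ± 0.699 CPM against 43.3 ± 0.769 in WT, and DLL3 38.4 ± 0.428 against 69.7 ± 1.91. HES6 was higher by 0.52 ± 0.06 and HES5 by 0.58 ± 0.12 on the log2 scale (edgeR adjusted p = 1.49e-05 and 0.00192). HES1 was not called (0.01, 95% interval -0.11 to 0.12, edgeR adjusted p = 0.949). The small calls on DLL1 (0.18) and JAG1 (-0.18) were lost without either WT library, and without KO+CFLAR replicate 1 for DLL1 (0.13) or replicate 2 for JAG1 (-0.13). These 2 comparisons share the WT libraries.

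**Figure D3:**
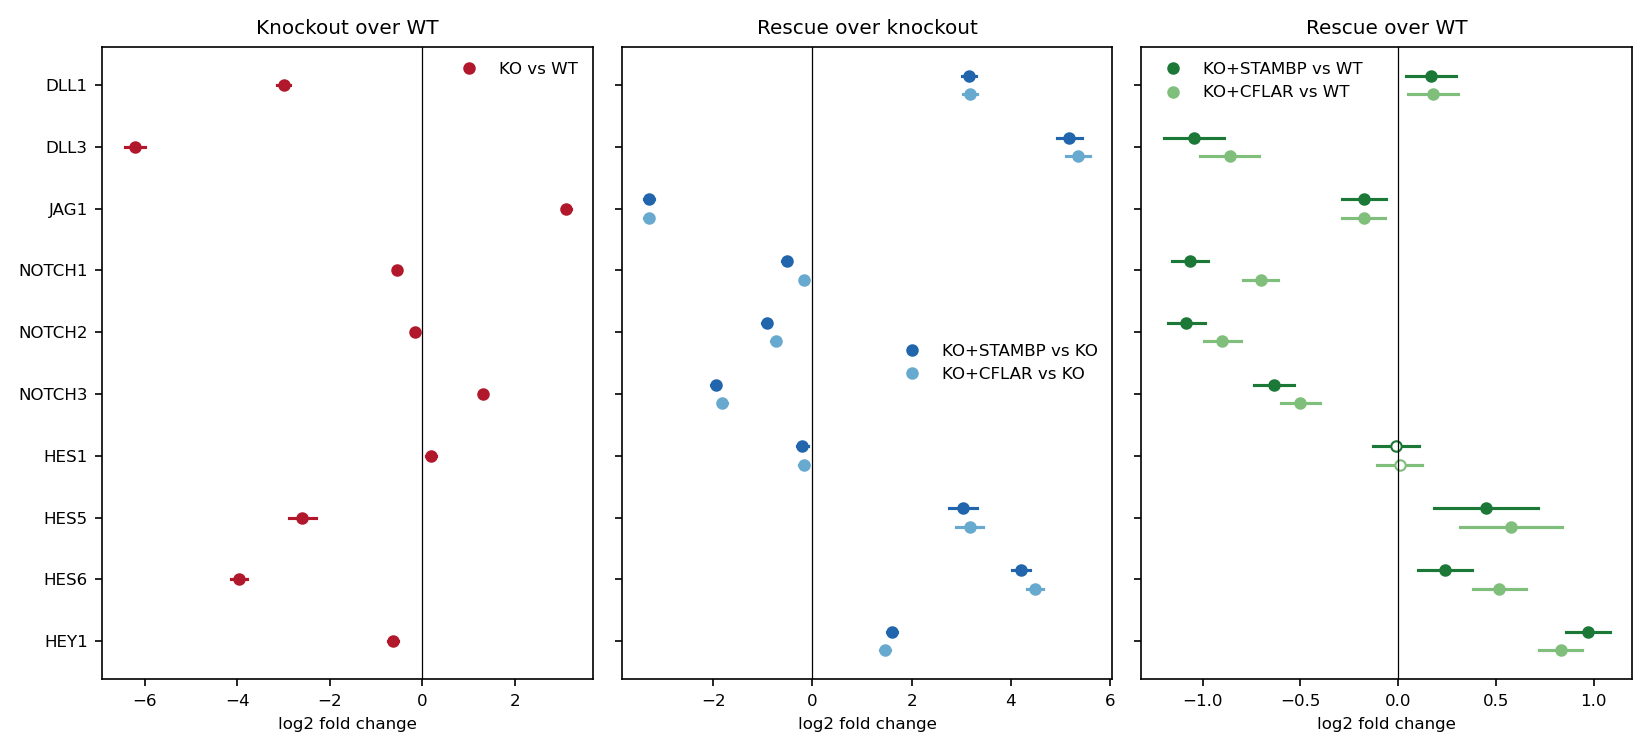
Log2 fold change with its 95% interval for each of the 10 genes in KO over WT, rescue over KO and rescue over WT; filled points were called and open points were not. The 3 receptors lie between -1.08 and -0.50 in both rescue groups over WT, HEY1 lies at 0.97 and 0.83, and HES1 is the open point near 0; the scales differ between panels.

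The libraries labelled KO+CFLAR were set against KO+STAMBP directly. In that comparison 2 of the 10 genes were called, both higher, where 1.09% of all tested genes were called, 0.627% higher and 0.461% lower. NOTCH1 had 203 and 194 CPM in the libraries labelled KO+CFLAR, against 153 and 156 in KO+STAMBP (log2 difference 0.36 ± 0.04, edgeR adjusted p = 0.00186). HES6 was higher by 0.28 ± 0.06 (edgeR adjusted p = 0.0483), a call that fell away under scaling with median-of-ratios factors (adjusted p = 0.0531) or library size alone (adjusted p = 0.0604). It was also lost without any 1 of KO2 replicate 1 or 2, KO+STAMBP replicate 1 or 2, KO+CFLAR replicate 2 or WT replicate 1 or 2, with differences of 0.20 to 0.32. NOTCH2 differed by 0.18 ± 0.05 and was not called (edgeR adjusted p = 0.0822). It was called without KO+CFLAR replicate 2 (0.23, adjusted p = 0.0395). For DLL1 and JAG1 the differences were 0.01 (95% interval -0.12 to 0.14) and -0.00 (95% interval -0.12 to 0.11). Over all genes 132 were higher and 97 lower, and with library size alone 108 and 122.

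The 2 knockout lines gave close values. In KO1 vs KO2, 0 of the 10 genes were called with edgeR, 0 had an unadjusted p under 0.05 and DESeq2 called 0, where edgeR called 0.157% of all tested genes, 0.133% higher and 0.0237% lower. The difference was -0.01 for JAG1 (95% interval -0.09 to 0.08), -0.00 for NOTCH1 (-0.10 to 0.09) and -0.02 for NOTCH3 (-0.12 to 0.07). It was less well bounded for the genes with few counts, at -0.42 for DLL3 (95% interval -1.12 to 0.29) and -0.03 for HES5 (-0.52 to 0.47).

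Profiles over the 5 groups were compared with those of 14273 genes by the distance between centred group means of log2(CPM + 0.5). The 3 genes nearest to JAG1 were GADD45A (distance 0.0617), CDC42EP1 (0.0921) and LAMA5 (0.104). LAMA5, a laminin chain of epithelial basement membranes, averaged 634 and 629 CPM in KO1 and KO2 against 77.2 in WT. Nearest to DLL1 were SV2A (0.114), a synaptic vesicle protein, then SEMA6C (0.123) and NUDT10 (0.127). OPRL1 (0.0694), SBK1 (0.0829) and CACNB1 (0.0905) were nearest to HES5, and ZFHX4 (0.126), RTKN2 (0.196) and FMNL3 (0.242) to NOTCH1. For HES1 they were LAMTOR1 (0.0245), XAB2 (0.0247) and CLPX (0.0284). LAMTOR1, a lysosomal scaffold protein, averaged 48.3 and 49.0 CPM in KO1 and KO2 against 42.4 in WT. Among the 10 genes themselves, DLL1 and HES5 were each other's nearest (0.486), as were NOTCH1 and NOTCH2 (0.523). The nearest of the 10 was HES6 for DLL3 (1.52), NOTCH3 for JAG1 (1.72) and HES5 for HEY1 (1.68).

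The rest of the pathway was followed with 51 further genes in roles around the 10, of which 48 were tested. In KO vs WT 23 were higher, 20 lower and 5 not called, where 76.2% of all tested genes were called, with a median log2 change of 0.17 against -0.04 over all tested genes. In KO+STAMBP vs KO 21 were higher and 24 lower, and in the libraries labelled KO+CFLAR 22 were higher and 22 lower than in KO; of all tested genes 77.9% and 78% were called there. Against WT, 14 were higher and 17 lower in KO+STAMBP, where 34.9% of all tested genes were called. In the libraries labelled KO+CFLAR 15 were higher and 14 lower than in WT, where 33.7% were called.

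Among the 4 other ligand genes, JAG2 and DLK1 were higher in knockout libraries, DLK2 lower and DLL4 not called. Of all tested genes, 36.8% were higher and 39.4% lower in KO vs WT. JAG2, the second Jagged ligand, averaged 43.8 ± 2.27 CPM in knockout libraries against 25.3 ± 0.691 in WT, a smaller change than that of JAG1. DLK1, a Delta-like protein without the receptor-activating domain, averaged 114 ± 6.90 CPM against 50.6 ± 3.02. DLK2 had 0.488 ± 0.360 CPM in knockout libraries against 3.02 ± 0.155 in WT. Of the 3 tested receptor genes other than the 3 above, NOTCH4 was lower, with 1.84 ± 0.173 CPM against 3.79 ± 0.728, and NOTCH2NLA higher, with 12.5 ± 2.92 against 8.71 ± 0.431. NOTCH2NLA was called in KO1 (15.1 and 14.5 CPM) but not in KO2 (8.66 and 11.9 CPM), whose first library lay within the WT range of 8.40 to 9.01; the difference between KO1 and KO2 was not called (log2 0.52 ± 0.16, edgeR adjusted p = 0.615). NOTCH2NLC was not called, at 4.86 ± 0.747 CPM in knockout libraries and 5.57 ± 1.17 in WT, and both NOTCH2NL genes share sequence with NOTCH2.

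Genes that act on ligands and on receptor sugars changed in both directions. Of 5 genes for ligand endocytosis, which ligands need in order to pull on the receptor, 4 were lower and 1 higher, where 39.4% of all tested genes were lower and 36.8% higher. NEURL1, a ubiquitin ligase of the Neuralized family, fell to 1.14 ± 0.426 CPM in knockout libraries, against 9.82 ± 0.408 in WT. NEURL4 averaged 36.2 ± 1.03 CPM against 61.3 ± 2.35, and MIB1, the main ligase for Notch ligands, 194 ± 4.74 against 236 ± 12.8. Of 5 glycosylation genes, 3 were lower and 2 higher. Fringe enzymes extend sugars on the receptor and shift its response between Delta and Jagged ligands. The Fringe genes LFNG and MFNG were among the lower ones. LFNG averaged 9.25 ± 0.509 CPM against 24.6 ± 2.84 (log2 change -1.42 ± 0.09, edgeR adjusted p = 3.13e-09), and MFNG 1.33 ± 0.372 against 6.44 ± 0.341. Another Fringe gene, RFNG, is among the 5, but its values are not given here. POFUT1, the enzyme that adds the first fucose, averaged 239.5 ± 8.24 CPM against 94.6 ± 2.50 (1.34 ± 0.04, edgeR adjusted p = 4.86e-13).

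Of 8 genes of receptor cleavage, 6 were higher, 1 was lower and PSEN2 was not called, where 36.8% of all tested genes were higher. In each rescue group against KO, 1 was higher and 7 were lower, where 37.8% of all tested genes were lower in KO+STAMBP, as were 38% in both libraries labelled KO+CFLAR. Whether these shares differ from those of all genes was not tested. ADAM10, which makes the first cut after ligand binding, averaged 306 ± 3.34 CPM in knockout libraries against 148 ± 5.40 in WT, and ADAM17 151 ± 3.08 against 68.2 ± 5.48. APH1B, a gamma-secretase subunit, was the lower one, with 10.02 ± 0.564 CPM against 47.7 ± 0.039 (log2 change -2.25 ± 0.07, edgeR adjusted p = 2.29e-13). Of 7 genes of the nuclear complex and its corepressors, 3 were higher, 3 lower and 1 not called. RBPJ, the DNA-binding partner, averaged 133 ± 3.86 CPM in knockout libraries against 183 ± 8.32 in WT. The coactivator genes MAML2 (62.0 ± 2.38 against 27.6 ± 0.306 CPM) and EP300 (305 ± 6.06 against 157 ± 11.7) were higher.

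Of 9 inhibitors and turnover genes, 5 were higher and 4 lower, where 36.8% of all tested genes were higher and 39.4% lower. DTX1, a Deltex ubiquitin ligase gene, fell to 2.30 ± 0.265 CPM in knockout libraries, against 36.7 ± 1.21 in WT (log2 change -3.98 ± 0.10, edgeR adjusted p = 3.13e-14), and DTX3 to 23.6 ± 1.29 against 93.4 ± 1.19. NRARP, a feedback inhibitor and itself a Notch target, was higher, with 71.3 ± 2.68 CPM in knockout libraries against 17.6 ± 0.998 in WT (2.02 ± 0.06, edgeR adjusted p = 3.00e-13). It thus moved opposite to HES5. In the libraries labelled KO+CFLAR it averaged 30.7 ± 0.788 CPM, against 24.0 ± 0.170 in KO+STAMBP.

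Outside the 4 HES and HEY genes above, 5 others were tested, of which 3 were higher, HEY2 was lower and HES7 was not called. Of all tested genes, 36.8% were higher and 39.4% lower. HES2 had a large rise, with 76.0 ± 3.99 CPM in knockout libraries, 0.943 ± 0.050 in KO+STAMBP, 0.482 ± 0.023 in both libraries labelled KO+CFLAR and 0.471 ± 0.321 in WT. Its KO vs WT log2 change was 7.38 ± 0.16 (SE; edgeR adjusted p = 7.35e-15). HEY2 averaged 1.61 ± 0.287 CPM in knockout libraries against 8.99 ± 0.278 in WT, and HES4 68.4 ± 4.29 against 58.3 ± 4.21. Among the HES and HEY genes named here, HES2 was higher, HES5, HES6, HEY1 and HEY2 were lower, and HES1 and HES4 differed from WT by only 0.19 and 0.23 on the log2 scale; with library size alone the HES1 difference was 0.01.

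The neurogenin genes, proneural genes that HES proteins repress, were near 0 in knockout libraries. Both were called lower, as were 39.4% of all tested genes. NEUROG2 averaged 0.214 ± 0.041 CPM in knockout libraries, 180 ± 10.5 in KO+STAMBP, 181 ± 5.88 in both libraries labelled KO+CFLAR and 77.6 ± 2.28 in WT. NEUROG1 had 2 counts over the 4 knockout libraries, against 289 in WT. NEUROG2, which in mouse activates Dll1, was higher in both rescue groups than in WT. DLL1 was also higher there, but its log2 change over WT was only 0.17 for KO+STAMBP and 0.18 for KO+CFLAR as labelled. Both of these small DLL1 calls were lost when either WT library was left out. Whether the NEUROG2 and DLL1 levels go together beyond this order of the groups was not tested.

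**Figure D4:**
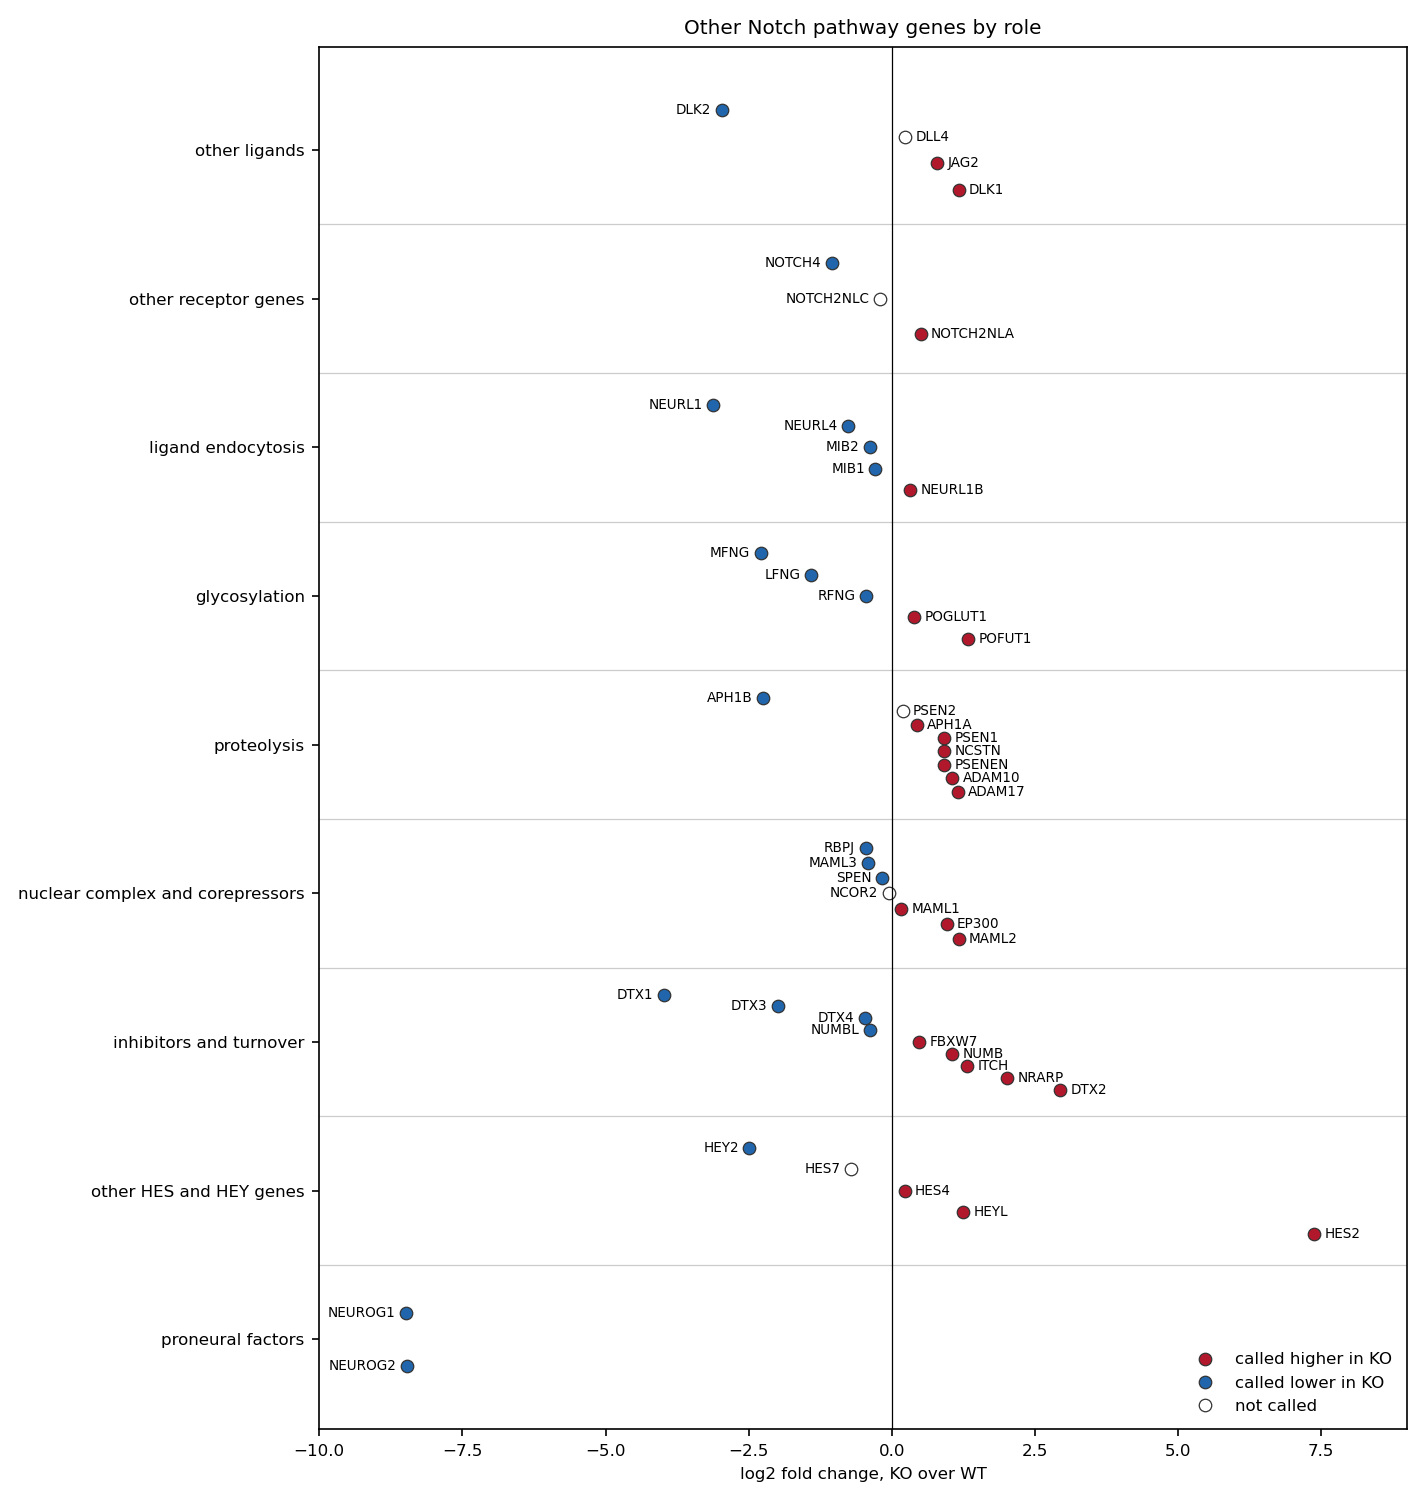
Log2 fold change, KO over WT, of the 48 tested pathway genes outside the 10, by role; red points were called higher, blue points called lower and open points not called. Cleavage genes lie mostly right of 0 and the neurogenin genes far left; the NEUROG1 point rests on 2 counts in the knockout libraries, so its place depends on the fit's prior.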

How the data were processed

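RNA of 10 libraries was sequenced after Trizol extraction and TruSeq preparation, per the labels' protocols. The deposited values are whole-number counts, 1 column per library, with no normalization by the authors. Tools in the submitters' processing notes are RSEM 1.2.4, fastp 0.20.0 and DESeq2; hg38 and GRCh38 are the builds, with no role or order stated. Annotation, strand setting and any rounding are not given in the sources used here. Of the 10 genes, 4 (DLL1, JAG1, NOTCH2 and NOTCH3) are on rows of merged loci and 6 on single rows.

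From the counts, edgeR 4.0.16 in R 4.3.3 fitted a quasi-likelihood model with TMM factors and the filterByExpr filter to 21063 genes, with 1 mean per group over all 10 libraries (5 residual degrees of freedom). A gene was called when its p, adjusted over all tested genes by Benjamini-Hochberg, was under 0.05. KO is the equally weighted mean of KO1 and KO2. Standard errors came from the F statistic, and intervals are 95%. Lengths are unions of exons in GENCODE release 29. Within a group, a chi-square of 1.93 to 3.39 per gene separated the libraries beyond counting error, so each was kept as a replicate.

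The members and gene lists were chosen with earlier results of these data known. Further pathway genes are named by rule, at most 3 per role with the smallest adjusted p in KO vs WT; profiles were compared for DLL1, JAG1, NOTCH1, HES1 and HES5 with genes of at least 2 CPM on average. The fit was tested on simulated counts. Alternatives were DESeq2 1.42.0, median-of-ratios factors, library size alone, no filter, at least 50 counts in at least 2 libraries, leaving out each library, a replicate block, fits on only the groups compared, and receptor shares without length correction; leaving out the libraries labelled KO+CFLAR was chosen after the data were seen. Protein sequences were not used here. A result on 1 further pathway gene is not reported here.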

Additional observations from a re-analysis of the deposited data

Results flagged for a closer look

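For 2 genes the effect over the knockout differed between the rescue groups by a test of the difference itself. NOTCH1 was 0.361 higher on the log2 scale in the libraries labelled KO+CFLAR than in KO+STAMBP (edgeR adjusted p = 0.00186), in 2 of 2 libraries. HES6 was 0.279 higher there (edgeR adjusted p = 0.0483), also in 2 of 2 libraries. The range over alternatives was 0.33 to 0.39 for NOTCH1 and 0.20 to 0.36 for HES6 when a library was left out. The HES6 call was lost when any 1 of 7 libraries was left out (adjusted p up to 0.379), with median-of-ratios factors (0.0531), with library size alone (0.0604) and with only the groups compared (0.0521).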

How the results depend on the processing

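Of 1559 values of the 10 genes under alternatives, 1514 kept their direction and side of the threshold, 38 lost a call, 4 gained one and 3 turned direction. The 3 that turned did so with library size alone: HES1 at 0.012 in KO+STAMBP vs KO and at 0.021 in the libraries labelled KO+CFLAR vs KO, and NOTCH1 at 0.039 in the libraries labelled KO+CFLAR vs KO. That scaling moved the median of all genes by -0.18 in KO vs WT, 0.21 in KO+STAMBP vs KO and 0.20 in the libraries labelled KO+CFLAR vs KO. Genes called between KO1 and KO2 numbered 33, against 251 without a filter and 20 to 58 with a library left out (58 without KO1 replicate 2, 20 without KO2 replicate 2). Between the libraries labelled KO+CFLAR and KO+STAMBP they numbered 229, against 372 with DESeq2, 780 without a filter and 27 to 313 with a library left out (27 and 29 without KO+STAMBP replicate 1 and 2, 52 without KO+CFLAR replicate 1). The cause was not tested. Of the 10 genes, 2 were called there, against 1 with median-of-ratios factors, with library size alone and with only the groups compared, and 1 to 2 with a library left out. Without length correction the receptor shares were 22.7% in KO and 38.1% in WT for NOTCH1, 31.8% and 40.8% for NOTCH2, and 45.5% and 21.04% for NOTCH3. With the replicate number as a block, NOTCH2 was called between the rescue groups (0.18, edgeR adjusted p = 0.0434, as it was with DESeq2 and without a filter), making 3 of the 10 genes; no other call on the 10 genes changed. Over 10 pairs of groups, same-numbered libraries had deviations correlated at -0.00465 to 0.0752. Such values show no strong pairing by number but cannot exclude a weak one. Depth limits DLL3 and HES5 in knockout libraries most, with 10 to 20 and 30 to 47 counts per library.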
